A study of Arabidopsis thaliana with 18 samples.

Results

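A set of 164 probe sets read lower in the ethylene-insensitive line etr1-1 than in the wild type Col-0 at every spray and sampling time of the series, out of 22746 non-control probe sets on the Affymetrix ATH1 array. The members were chosen on the etr1-1 minus Col-0 difference of log2(intensity + 16) in 9 array pairs, each of the same spray, time and replicate number. A member lay below 0 in all 9 pairs with a mean of -0.5 or less. Of all non-control probe sets, 654 (2.88%) lay below 0 in all 9 pairs and 183 (0.805%) also had such a mean. The rule leaves out ARL, AT5G57760, JAL22, AT2G39980, AT5G01210, AT5G26260, FDH, PDF1.2b, the XTH and EXPA genes, genes of the plastid and mitochondrial genomes and the loci AT1G65340 to AT1G67340, which took away 19 probe sets. Because the genotype difference chose the members, it is given below as a description with no test. Tests of the members were run only on the GA4 response and on the steps between sampling times. The choice did not use these contrasts as taken over both genotypes. The difference in GA4 response between the genotypes is made of the 1 h pair differences that the rule kept below 0. The response in 1 genotype alone holds part of that difference, so it is not free of the choice either. A test of the genotypes is given only for other genes of the pathway lists, at the end.

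Ethylene is a gaseous hormone that plants perceive with receptors in the endoplasmic reticulum membrane. In air the receptors keep the kinase CTR1 active and the pathway off, and bound ethylene releases EIN2 and the transcription factors EIN3 and EIL1, which switch on ethylene response genes such as defensins and growth regulators. The etr1-1 allele is a dominant form of the receptor ETR1 that makes the whole plant insensitive to ethylene. Gibberellins such as GA4 promote growth by triggering the loss of DELLA repressor proteins.

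The series measured whole Arabidopsis thaliana plants aged 14 days, grown on MS/2 medium with sucrose, and by its title it concerns the interaction of these 2 hormones. The etr1-1 plants are labelled with the ecotype Col and the wild type with Col-0. The labels name no transgene, and the mutant is a single line. In each genotype, 1 array was made after water at 0 h, 1 at 30 min after GA4, 3 at 1 h after water, 3 at 1 h after GA4 and 1 at 3 h after GA4. Array titles begin with DV001, which holds 5 of the pairs and every sampling time, or with DV002, which holds 4 pairs, all at 1 h.

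The deposited intensities had been scaled to a common level, with array medians of 45.3 to 49.7 units and correlations of log2 values between arrays of 0.951 to 0.991. The average scanner background was higher on the etr1-1 array in 7 of the 9 pairs, and its part in the differences was not tested. Of 17 leaf photosynthesis markers, 2 were measured with a name, LHCB4.1 and RCA, and both were bright in the 2 genotypes. Their summed intensity ran from 5500 to 6185 units over the etr1-1 arrays and from 4751 to 7002 units over the Col-0 arrays. None of 10 root markers and none of 13 seed, flower and pollen markers was measured with a name. The share of root tissue in each sample was therefore not tested, and in whole plants fewer cells of a type and less RNA per cell cannot be told apart.

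Of the 164 members, 65 name 1 gene, 4 name several and 95 are unlisted in the platform table used here. Unlisted probe sets could not be checked against the left-out genes. The median of the 164 mean differences was -0.68, and that of all non-control probe sets was 0.02. A mean of -1 or less, a fold of at least 2 on this scale, was found for 26 members, 11 of them named. Another 46 lay between -1 and -0.7, and 92 lay above -0.7, so most of the set differs by less than 2-fold on this scale. In 52 members, 21 of them named, all 9 etr1-1 arrays lay below all 9 Col-0 arrays, which was so for 0.343% of all non-control probe sets. Both the rule and this count read the same arrays. The median member intensity was 62.6 units in etr1-1 and 127 units in Col-0. The offset of 16 understates the fold in intensity, most of all in the 25 members whose etr1-1 median lay under 16 units.

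**Figure D1:**
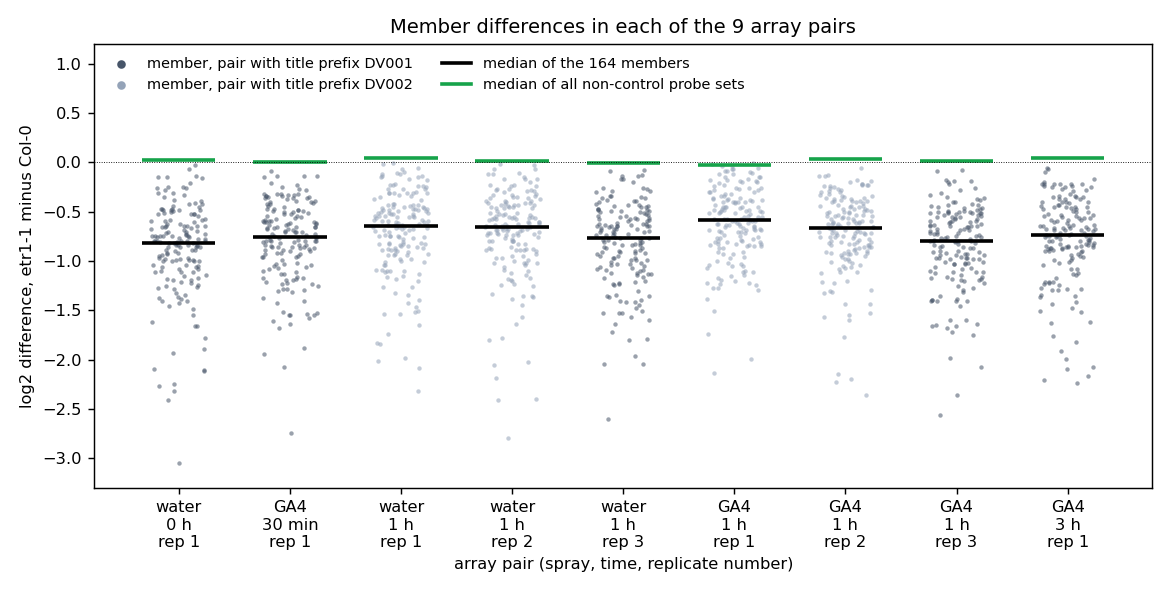
Log2 difference, etr1-1 minus Col-0, of each of the 164 members (points) in the 9 array pairs, with the member median (black bar) and the median of all non-control probe sets (green bar). All points lie below 0 by the rule, and the member medians run from -0.81 to -0.59 while those of all probe sets stay near 0.

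The member median was -0.81 in the pair at 0 h, -0.76 at 30 min, -0.65, -0.65 and -0.76 in replicates 1, 2 and 3 after water at 1 h, -0.59, -0.66 and -0.80 in the same replicates after GA4 at 1 h, and -0.74 at 3 h. The rule sets the sign in every pair, so only the sizes vary freely here. At 1 h the replicate 3 pairs carry the prefix DV001 and the other pairs DV002, and 114 of the 164 members had the larger difference in DV001. The SD of a member's 9 pair differences had a median of 0.29. It was smallest among named members for AT4G16146, AT4G17840 and bZIP44 and largest for AT3G16670, AT2G16005 and AT3G49960. Over pairs of tested members the median correlation of the 9 pair differences was 0.07, a description only since the values share arrays. The SD of the log2 values with the offset was larger over the Col-0 arrays than over the etr1-1 arrays in 104 members. The offset compresses dim values more, and the rule chose members dimmer in etr1-1, so this count is not free of the rule. No share over all probe sets is given for the 104 members or for the 114 above. Neither count therefore shows a trait particular to the members.

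Genes named below follow the size of their difference, its spread, the tests and shared families. Roles are general knowledge of the Arabidopsis gene families, and the members were sorted into roles after their values had been seen.

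Secreted or wall proteins other than the families below made up 4 named members, with mean differences from -1.66 to -0.53. AT3G16670, of the Ole e 1 and extensin family of secreted wall proteins, had 49.1 to 103 units over the etr1-1 arrays with a median of 70.7, against 108 to 457 units with a median of 402 over the Col-0 arrays. No etr1-1 array reached the lowest Col-0 array, and the mean log2 difference was -1.66 ± 0.66 (SD, n = 9 pairs). Its wide spread lay in Col-0, where the 5 DV001 arrays gave 402 to 457 units and the 4 DV002 arrays 108 to 238 units, while the etr1-1 arrays gave 57.8 to 100.4 units in DV001 and 49.1 to 103 units in DV002. The mean difference was -2.19 over the DV001 pairs and -1.01 over the DV002 pairs. Another gene of that family, AT5G15780, had 21.2 to 103.5 units in etr1-1 with a median of 55.9, against 64.7 to 191 units in Col-0 with a median of 152. Here the ranges of the genotypes overlapped, and the mean difference was -0.97 ± 0.41. The GDSL lipase gene AT1G33811 and the DUF642 wall protein gene AT2G41800 had smaller differences of -0.66 and -0.53.

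**Figure D2:**
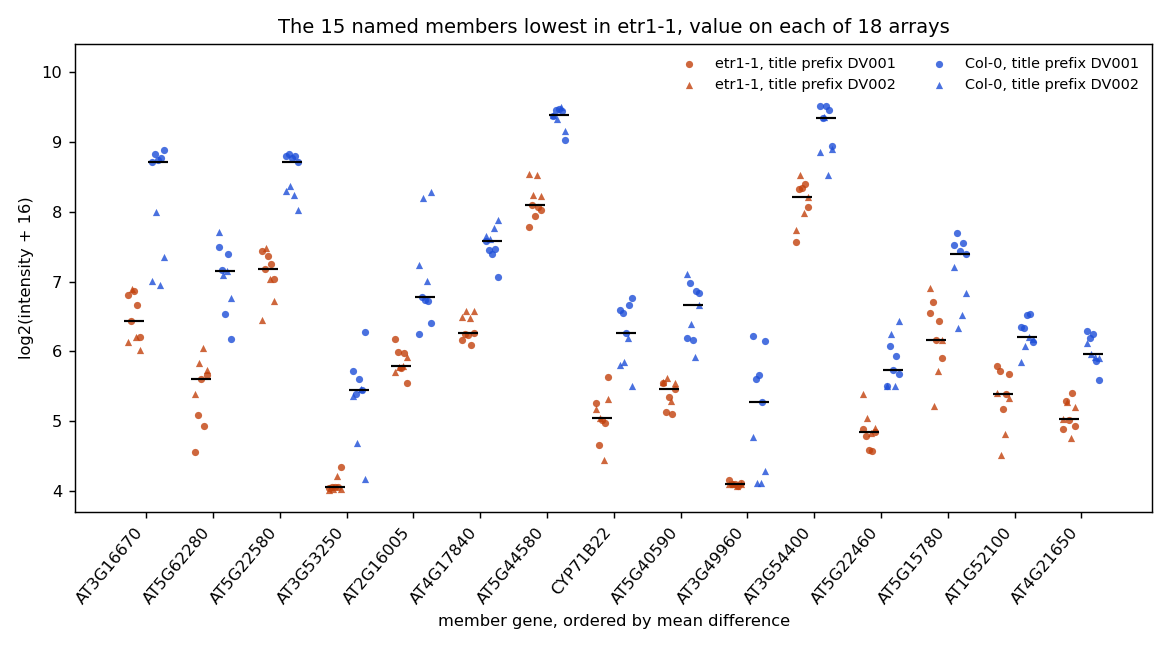
Log2(intensity + 16) of the 15 named members with the lowest mean difference on each of the 18 arrays, etr1-1 (orange, left) beside Col-0 (blue, right), with circles for DV001, triangles for DV002 and a bar at the median of 9 arrays. In Col-0 the DV002 arrays of AT3G16670 and AT3G49960 lie under the DV001 arrays, and the etr1-1 arrays of AT3G49960 and AT3G53250 lie close to the floor set by the offset.

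Class III peroxidases are secreted enzymes that make or use hydrogen peroxide in the wall, and 3 genes of the family were members. AT3G49960 was near the bottom of the scale in etr1-1, at 0.9 to 1.8 units, against 1.3 to 58.6 units in Col-0 with a median of 22.9. Its Col-0 signal was itself low in DV002, at 1.3 to 11.4 units, and 22.9 to 58.6 units in DV001, and the mean difference of -1.03 ± 0.83 was -1.67 over the 5 DV001 pairs and -0.23 over the 4 DV002 pairs. Prx37 had 36.1 to 88.3 units in etr1-1 with a median of 41.8, against 67.8 to 161 units in Col-0 with a median of 106. The genotypes overlapped for Prx37, with a mean difference of -0.86 ± 0.35, and for AT4G11290, with -0.55 ± 0.25. UPB1, a bHLH factor known to repress peroxidase genes in the root, was a member too, at 12.9 to 24.4 units in etr1-1 against 21.3 to 44.7 units in Col-0 (-0.52 ± 0.23).

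The 3 protease members come from different families. The aspartyl protease gene AT3G54400 had 174 to 352.4 units in etr1-1 with a median of 281, against 352.9 to 717 units in Col-0 with a median of 631. The highest etr1-1 array thus lay just under the lowest Col-0 array, and the mean difference was -1.02 ± 0.29. The subtilase gene AT4G21650 had 11.2 to 26.5 units in etr1-1 against 32.4 to 62.0 units in Col-0, also without overlap (-0.92 ± 0.19). AT5G22860, a serine carboxypeptidase of the S28 family, differed by -0.54 ± 0.20 with overlap.

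AT2G16005, which encodes a protein with the ML lipid recognition domain, had 30.9 to 56.2 units in etr1-1 with a median of 39.3, against 59.9 to 295 units in Col-0 with a median of 93.8. The etr1-1 arrays were alike, and the Col-0 arrays were not. Replicate 2 at 1 h gave 295 units after GA4 and 276 units after water in Col-0, both in DV002, and the 5 DV001 arrays of Col-0 gave 59.9 to 93.8 units. The mean difference was -1.22 ± 0.79, and -0.88 over the 7 pairs without replicate 2 at 1 h. AT1G62500, related to lipid transfer proteins, lay just inside the threshold at -0.50 ± 0.27.

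The 3 lectin members, which bind sugars, were AT1G52100 and JAL33 of the jacalin family and AT5G18470 of the mannose-binding family. AT1G52100 had 6.9 to 39.4 units in etr1-1 against 41.4 to 76.6 units in Col-0, without overlap (-0.93 ± 0.42). JAL33 was bright in both genotypes, at 474 to 774 units in etr1-1 with a median of 667 and at 620.5 to 1169.6 units in Col-0 with a median of 1052. Its difference was -0.66 ± 0.26, and AT5G18470 had -0.70 ± 0.41, both with overlap.

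Enzymes that modify small molecules made up 7 named members. CYP71B22, a cytochrome P450, had 5.9 to 33.6 units in etr1-1 with a median of 17.1, against 29.6 to 92.7 units in Col-0 with a median of 60.9. Its mean difference was -1.18 ± 0.57, with the smallest pair difference at -0.19 and the ranges just overlapping. Of the alpha/beta hydrolases, AT5G22460 had a median of 12.9 units in etr1-1 against 37.3 units in Col-0 (-0.97 ± 0.44), and AT2G39400 had 67.5 against 134 units (-0.79 ± 0.20). The UDP-glycosyltransferase gene AT5G05880 had medians of 8.3 units in etr1-1 and 23.2 units in Col-0, and the dioxygenase gene AT5G59540 had 227.5 and 319 units. The arrays of the genotypes did not overlap for these 4, as for 52 of the 164 members. The acyltransferase gene AT5G39080 and the methyltransferase gene AT5G38020 differed by -0.65 and -0.59.

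Among regulators, AT3G53250, the auxin-responsive gene SAUR57, was almost at 0 in etr1-1, at 0.2 to 4.3 units with a median of 0.6, against 2.0 to 61.8 units in Col-0 with a median of 27.6. The 2 ranges overlapped only through 1 Col-0 array, replicate 2 after GA4 at 1 h, and the mean difference was -1.25 ± 0.60. RR16, a type-A response regulator induced by cytokinin, had 1.9 to 16.9 units in etr1-1 against 15.5 to 39.9 units in Col-0 (-0.65 ± 0.30). AGL24, a MADS-box factor that promotes flowering, had medians of 3.6 units in etr1-1 and 20.9 units in Col-0 (-0.72 ± 0.43). All 3 lay under the filter on dim probe sets and could not be tested for other effects. The leucine zipper factor bZIP44 was steadier, at 44.0 to 66.5 units in etr1-1 against 66.1 to 112 units in Col-0, with a difference of -0.61 ± 0.15. BZIP61 lay just inside the threshold, at -0.50 ± 0.26. AT1G56220, of the dormancy and auxin associated family, had medians of 341 units in etr1-1 and 624 units in Col-0 (-0.71 ± 0.16). The RING proteins AT1G49200 and AT4G17245, of a type that includes ubiquitin ligases, differed by -0.65 and -0.61.

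**Figure D3:**
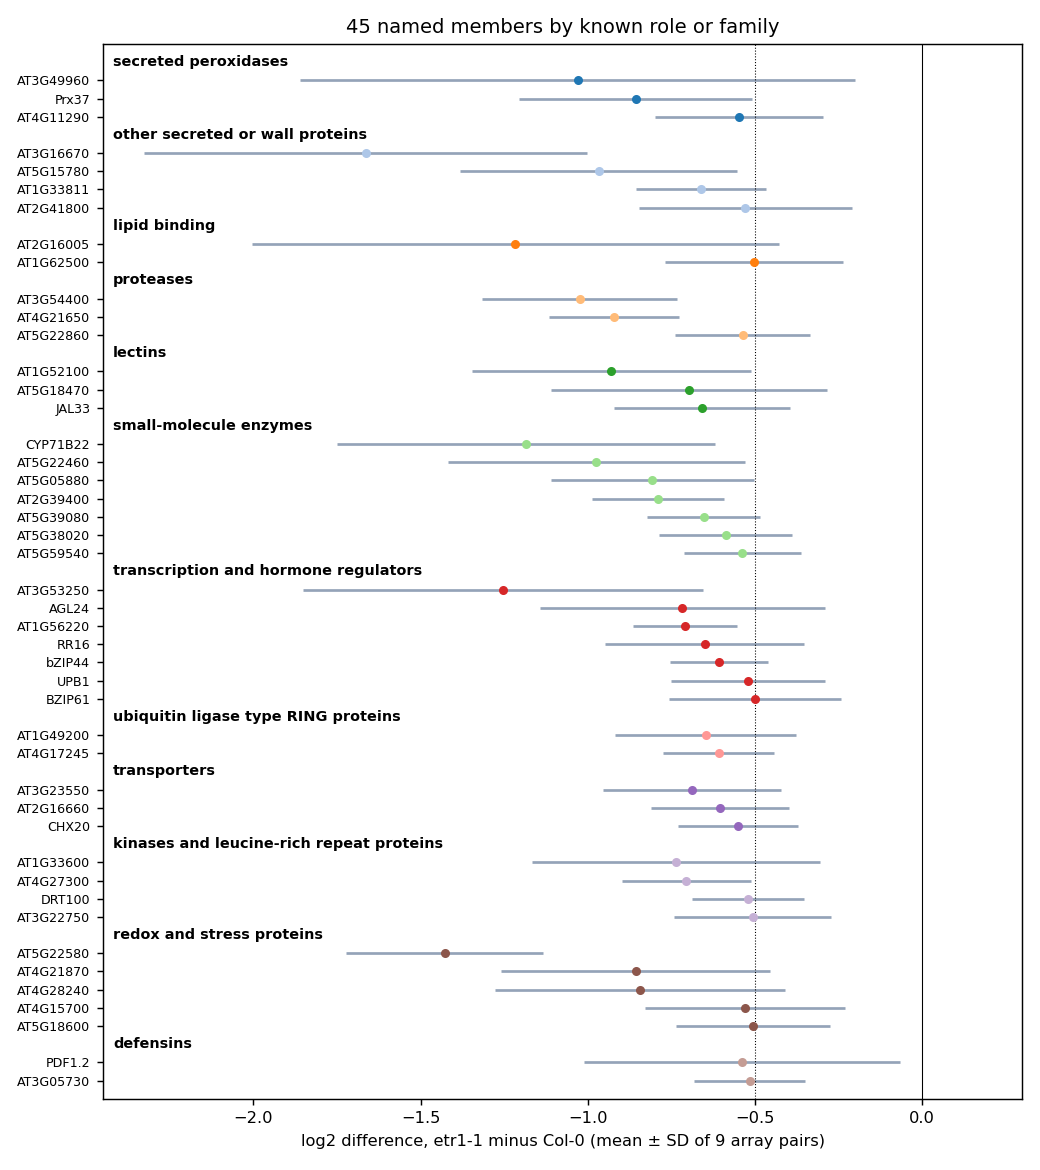
Mean log2 difference, etr1-1 minus Col-0, of the 45 named members sorted by known role or family, with bars for the SD of the 9 array pairs and a dotted line at the rule's limit of -0.5. Group medians run from -0.92 for the 3 proteases to -0.53 for the 2 defensins, and the bars of most groups overlap.

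Of the 5 redox and stress proteins, AT5G22580, a gene with a stress-responsive A/B barrel domain, differed most. It had 71.7 to 162 units in etr1-1 with a median of 129, against 245 to 436 units in Col-0 with a median of 404, and no array of one genotype reached the other (-1.43 ± 0.30). AT4G21870, of the small heat shock protein family, had 153 to 1036 units in etr1-1 with a median of 618, against 437 to 1182 units in Col-0 with a median of 1102. Its ranges overlapped, its lowest value in both genotypes was at 0 h, and its mean difference was -0.86 ± 0.40. The wound-responsive family gene AT4G28240 had 221 to 415 units in etr1-1 against 421 to 821 units in Col-0, without overlap (-0.84 ± 0.43). The glutaredoxin genes AT4G15700 and AT5G18600 differed by -0.53 and -0.51.

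PDF1.2, a plant defensin gene used as a marker of joint ethylene and jasmonate signalling, was among the members but dim in every sample. It had 0.5 to 17.9 units in etr1-1 with a median of 7.0, against 7.2 to 39.8 units in Col-0 with a median of 12.7. The genotypes overlapped, the pair differences ran from -1.55 to -0.02, and the mean was -0.54 ± 0.47. The defensin-like gene AT3G05730 differed by -0.52 ± 0.17, with medians of 412 units in etr1-1 and 643 units in Col-0.

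Kinases, leucine-rich repeat proteins and transporters lay between -0.74 and -0.51. AT1G33600, a leucine-rich repeat protein gene, had medians of 242 units in etr1-1 and 398 units in Col-0 (-0.74 ± 0.43). The S-locus lectin kinase gene AT4G27300 had 84.9 against 152 units (-0.71 ± 0.19), and DRT100, another leucine-rich repeat gene, had 313 against 467 units (-0.52 ± 0.17). The kinase gene AT3G22750 showed no overlap, at 23.7 to 41.3 units in etr1-1 against 44.5 to 64.5 units in Col-0. CHX20, a cation/H+ exchanger of guard cells, had 15.2 to 42.4 units in etr1-1 against 29.2 to 70.4 units in Col-0 (-0.55 ± 0.18). The MATE transporter gene AT3G23550 and the major facilitator gene AT2G16660 differed by -0.69 and -0.60.

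Some of the largest and steadiest differences belonged to genes of little-known function. AT5G62280 was the only named member at -1 or less in all 9 pairs, with 7.6 to 50.5 units in etr1-1 and a median of 32.7, against 56.6 to 193 units in Col-0 and a median of 127 (-1.63 ± 0.48). AT4G17840, of the CAAX protease type, had 52.5 to 79.8 units in etr1-1 with a median of 61.2, against 118 to 219 units in Col-0 with a median of 175. Its mean difference of -1.19 came with an SD of 0.14, so this pattern was about as large in every pair. AT5G44580, of unknown function, had 204 to 356 units in etr1-1 with a median of 257.5, against 505 to 707 units in Col-0 with a median of 653.5 (-1.19 ± 0.24). AT5G40590, of the Cys/His-rich C1 family, differed by -1.17 ± 0.34 without overlap, and the TRAF-like gene AT3G20370 by -0.77 ± 0.21 without overlap. Of the unlisted probe sets, 258434_at had 86.9 to 140.3 units in etr1-1 against 495 to 834 units in Col-0 (-2.37 ± 0.37), and 246935_at had 60.9 to 96.6 units against 237.5 to 440 units (-1.89 ± 0.23). These 2 had lower means than any named member, and neither has a gene name here.

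The named members nearest to the limit inside it were BZIP61, AT2G36220 and AT1G62500, all at a mean of -0.50. Just outside lay AT5G48490 (-0.495), AT1G23030 (-0.49) and AT2G27610 (-0.49), which were also below 0 in all 9 pairs. The 65 named members lie on all nuclear chromosomes, with 10, 9, 15, 13 and 18 on chromosomes 1 to 5. These are 15.4%, 13.8%, 23.1%, 20% and 27.7%, against 25.9%, 16.5%, 20.5%, 14.6% and 22.5% of all probe sets that name 1 gene. The shares were not tested, and the rule leaves out a segment of chromosome 1. Only AT2G15960 and AT2G16005 stand within 5 protein-coding genes of each other.

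The 2 title prefixes parted in level for some members. In Col-0, all 5 DV001 arrays lay above all 4 DV002 arrays for 16 of the 65 named members and below them for 4. In etr1-1 this was so for 5 and 3 members. AT3G16670, AT3G49960, AT4G11290, AT5G15780, AT1G62500 and CYP71B22 were among the 16 in Col-0 and not among the 5 in etr1-1. DV001 also holds the arrays at 0 h, 30 min and 3 h, so prefix and sampling time are partly mixed in these counts. The counts were not made over all probe sets, so they show no trait particular to the members. The prefixes' own part in the levels was not tested.

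The selection did not use the GA4 response over both genotypes, so it could be tested whether GA4 changed these transcripts within 1 h. The difference in response between the genotypes is not free of the selection, which limited the pair differences behind it. Neither is the response in etr1-1 alone or in Col-0 alone, which holds part of that difference. The comparison used limma on the 12 arrays at 1 h, with 3 arrays in each of 4 groups. The brightness filter kept 144 members, 57 of them named. It read the mean log2 value over all arrays of both genotypes, so a member dim in etr1-1 can have passed through Col-0. In 5 tested members the etr1-1 median lay under 16 units, and for these the test in etr1-1 cannot show that a response is absent. JAL33 averaged 715 ± 60.7 units after GA4 and 573 ± 95.4 units after water in etr1-1 (SD, n = 3), and 1045 ± 120 units after GA4 against 1033 ± 42.4 units after water in Col-0. The S-locus lectin kinase gene AT4G27300 averaged 75.5 ± 13.0 units after GA4 and 96.3 ± 10.9 units after water in etr1-1, and 136 ± 24.7 against 163 ± 17.6 units in Col-0. AT5G62280 averaged 40.8 ± 8.50 units after GA4 and 33.2 ± 7.61 units after water in etr1-1, and 124 ± 29.3 against 147 ± 40.0 units in Col-0. JAL33 and AT5G62280 had the higher mean after GA4 in etr1-1, and AT4G27300 had the lower mean after GA4 in both genotypes.

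No member passed an adjusted p of 0.05 for GA4 against water in etr1-1, in Col-0, over both genotypes, or for the difference in GA4 response between them. The same held for all 15922 tested probe sets (0%), so the members do not stand apart from the rest in this count. At an unadjusted p under 0.05, limma called 4 members in etr1-1, 0 in Col-0, 4 over both genotypes and 1 for the difference, among 288, 96, 255 and 112 of all tested probe sets. With the replicate number as a block the count was again 0 in all 4 comparisons. The member estimates ran from -0.48 to 0.63 in etr1-1 and from -0.43 to 0.21 in Col-0, with a median SE of 0.19. Of the 139 tested members with an etr1-1 median of at least 16 units, the 95% interval excluded a 2-fold change on this scale for 128 in etr1-1, 132 in Col-0, 136 over both genotypes and 106 in the difference between genotypes. The other 5 have lower etr1-1 medians, and just above 16 units the offset still understates a fold. The count for the difference between genotypes draws on pair differences that the rule kept below 0, so it is a description only. The counts in etr1-1 alone and in Col-0 alone draw on them in part and are descriptions too. Among named genes the smallest unadjusted p in etr1-1 belonged to JAL33 (0.32 ± 0.13, SE) and AT4G27300 (-0.30 ± 0.15), and in Col-0 to AT4G27300 (-0.24 ± 0.15) and AT5G40590 (-0.35 ± 0.23). Neither JAL33 (0.31 ± 0.18) nor AT5G62280 (0.43 ± 0.28) passed for the difference in response.

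**Figure D4:**
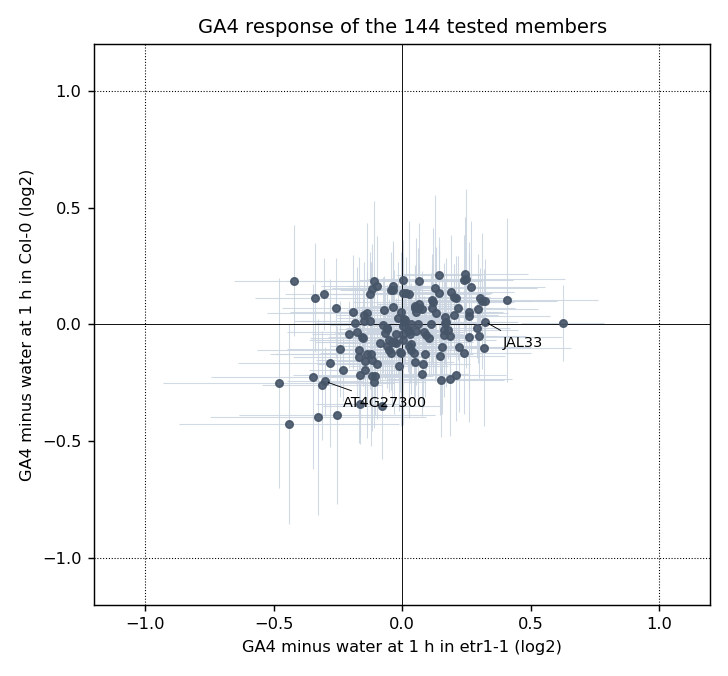
GA4 minus water at 1 h in etr1-1 (horizontal axis) and in Col-0 (vertical axis), log2, for the 144 tested members, with bars of 1 SE and dotted lines at a 2-fold change. All points lie inside those lines, and no member passed the test in either genotype.

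It was also tested whether the members kept a constant level between sampling times. Single arrays stand for each genotype at 0 h, 30 min and 3 h, so the steps were tested over both genotypes together, with the genotype and the title prefix as terms in limma over 18 arrays. AT1G33600 had 107.8 units at 0 h, 387 units at 30 min, a mean of 233 units after GA4 at 1 h and 119.5 units at 3 h in etr1-1. In Col-0 it had 192.5, 550.4, 386 and 362 units at the same points. Both genotypes had their highest GA4-series value at 30 min. Against water at 0 h, AT1G33600 rose at 30 min after GA4 by 1.57 ± 0.27 on the log2 scale (SE, adjusted p = 0.00126), with a rise on the single arrays of both genotypes.

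Between 30 min after GA4 and 0 h after water, 2.88% of all tested probe sets were called, 2.42% higher and 0.452% lower at 30 min, and the members gave 5 higher and 4 lower of 144, or 3.47% and 2.78%. Besides AT1G33600, the genes AT4G32020 (0.88 ± 0.15, adjusted p = 0.00137 in limma), AT2G36220 (0.81 ± 0.19) and AT5G18470 (0.85 ± 0.22) rose, all of them in both genotypes. AT4G39675 fell, to 8.6 units at 30 min in etr1-1, against 26.6 units at 0 h, and to 22.8 units in Col-0, against 58.2 units (-0.86 ± 0.19, adjusted p = 0.0109). With the replicate block 9 members were higher and 5 lower (9.72% in all), where 3.88% of all tested probe sets were called. Spray and time both differ in this step and cannot be told apart. The count dropped to 3 without the Col-0 array at 0 h or that at 30 min, to 4 without the etr1-1 array at 0 h and to 2 without the etr1-1 array at 30 min, where 1.46% to 1.98% of all tested probe sets were called.

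At 1 h after water against 0 h, 1.39% of all tested probe sets were called, 1.14% higher and 0.251% lower, and 6 members (4.17%) were higher and 0 lower. AT4G21870, the small heat shock protein gene, averaged 630 units at 1 h in etr1-1, with 528 to 705 units over 3 arrays, against 153 units at 0 h. In Col-0 it averaged 1073 units at 1 h against 437 units at 0 h. It rose by 1.45 ± 0.21 (adjusted p = 0.00106 in limma), with a step within DV001 of 1.69 in etr1-1 and 0.97 in Col-0, whose difference was not tested. AT5G18470 (1.04 ± 0.20) also rose. AT1G33600 averaged 295 units at 1 h after water in etr1-1, against 107.8 units at 0 h, and 459 units in Col-0, against 192.5, and rose too (adjusted p = 0.0281 in limma). At an unadjusted p under 0.05 in limma, 25 of the 144 members were higher and 6 lower. Among all 15922 tested probe sets 1132 were higher and 903 lower at that threshold. With the replicate block 10 members were higher and 1 lower at the adjusted threshold (7.64% in all), where 2.63% of all tested probe sets were called. The count was 2 without the Col-0 array at 0 h, 1 without the Col-0 replicate 3 array after water at 1 h and 0 without the etr1-1 array at 0 h, where 0.258%, 0.396% and 0.496% of all tested probe sets were called.

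At 3 h against 1 h after GA4, 2.66% of all tested probe sets were called, 1.02% higher and 1.63% lower, and 4 members (2.78%) were higher and 13 (9.03%) lower. The median member step was -0.11 and that of all tested probe sets 0.01. AT5G62280 had 7.6 units at 3 h in etr1-1, against a mean of 40.8 at 1 h, and 56.6 units at 3 h in Col-0, against 124. It fell by 1.08 on the log2 scale (SE 0.24, adjusted p = 0.0213 in limma). JAL33 had 474 units at 3 h in etr1-1, against a mean of 715 at 1 h, and 620.5 units at 3 h in Col-0, against 1045 (-0.63 ± 0.14). AT2G36220 (-0.86 ± 0.17), AT5G38020 (-0.59 ± 0.13) and AT4G32020 (-0.53 ± 0.14) also fell. CHX20 had 42.4 units at 3 h in etr1-1, against a mean of 19.3 at 1 h, and 70.4 units in Col-0, against 36.3, a rise of 0.68 ± 0.15, and AT4G16146 rose by 0.49 ± 0.10.

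AT4G32020 and AT2G36220 were thus higher at 30 min than at 0 h and lower at 3 h than at 1 h, in both genotypes. No water arrays at 30 min or 3 h were analysed here, so GA4 and time cannot be told apart in these steps. With the replicate block 6 members were higher and 21 lower at 3 h (18.8% in all), where 4.73% of all tested probe sets were called. The count was 1 without the etr1-1 array at 3 h, 3 without the etr1-1 replicate 3 array after GA4 at 1 h, and 4 without either the Col-0 array at 3 h or the Col-0 replicate 3 array after GA4 at 1 h, where 0.471% to 1.11% of all tested probe sets were called. Within DV001 alone 8 were higher and 23 lower (21.5% in all), against 3.83% of all tested probe sets. Whatever the step, the etr1-1 value of each of these genes stayed below that of its paired Col-0 array, as the rule requires.

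**Figure D5:**
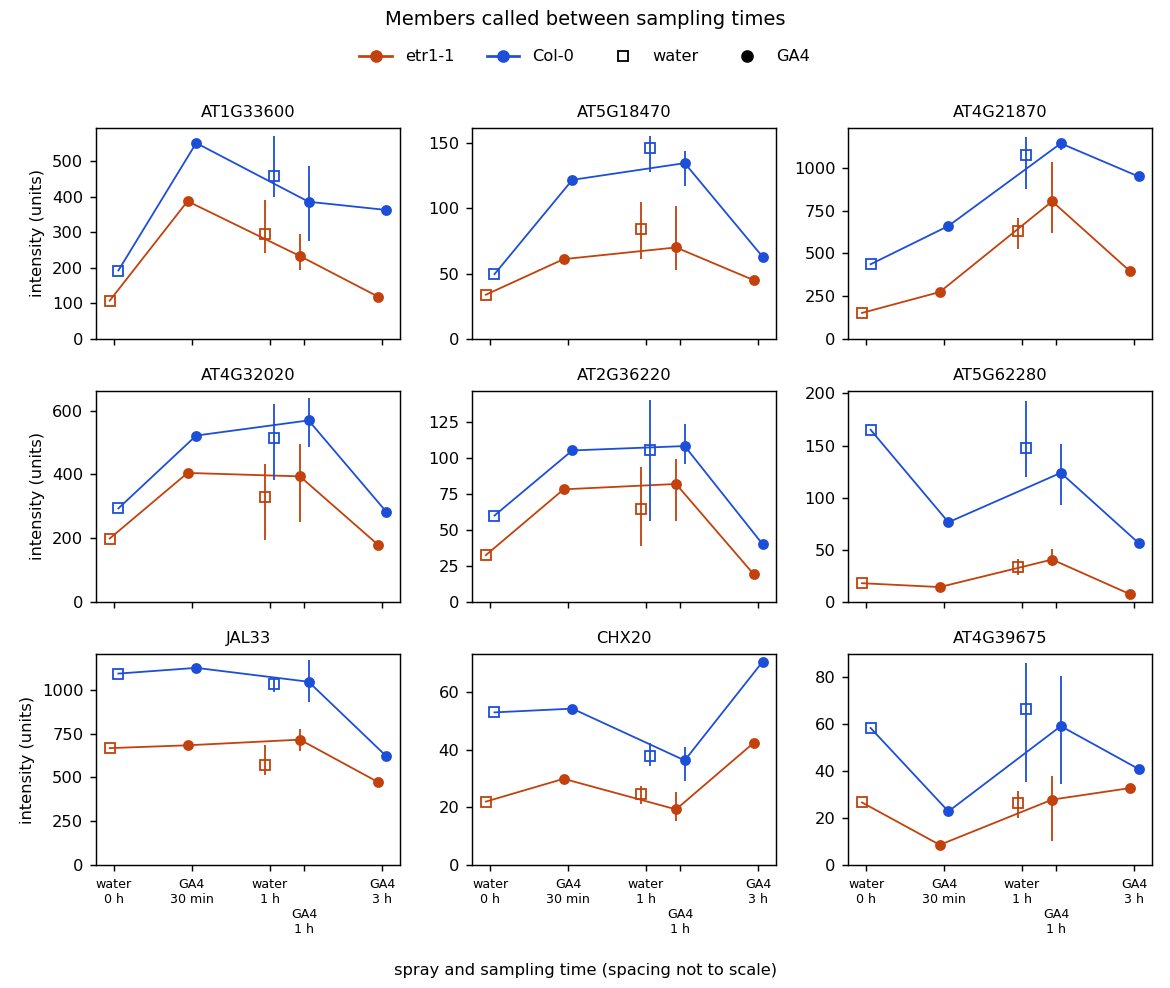
Intensity in units of 9 members called between sampling times, etr1-1 in orange and Col-0 in blue, open squares for water and filled circles for GA4. Points at 1 h are means of 3 arrays with a line over their range, other points are single arrays, and both genotypes move the same way in the called steps.

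Hormone and stress genes outside the set were compared between the genotypes as a background. Of 194 genes in 14 lists of hormone pathways, stress responses and markers, 28 were named on the array and 26 of these were tested and not members. Over the 18 arrays, 6.61% of all tested probe sets differed between etr1-1 and Col-0 in limma (3.28% higher and 3.34% lower), and 1 of these 26 genes did (3.85%). The members had been taken out on this same contrast, so the count says nothing about the lists as a whole. The gene was AT5G55450, related to lipid transfer proteins, with 2.3 to 70.1 units in etr1-1 and a median of 4.5, against 37.4 to 98.8 units in Col-0 and a median of 47.4 (-1.36 ± 0.25, SE, adjusted p = 0.00268). It is no member because it was not lower in every pair. With the array pair as a replicate block 5 of the 26 passed, 3 higher and 2 lower (19.2% in all), where 14.4% of all tested probe sets passed.

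EIN3, the transcription factor at the end of the pathway, had medians of 291 units in etr1-1 and 303 units in Col-0 (-0.01 ± 0.08, adjusted p = 0.982 in limma), a value whose sign turned with quantile normalization. RTE1, which acts with ETR1 at the membrane, had 51.9 and 69.1 units (-0.22 ± 0.09, adjusted p = 0.193). ETP2, an F-box protein that targets EIN2, had 45.8 and 42.0 units (0.03 ± 0.06), and ACO3, an enzyme of ethylene synthesis, had 45.4 and 46.3 units (-0.08 ± 0.10), and neither passed. These 4 were the genes of the ethylene synthesis, reception and signalling lists that were measured with a name. Of 19 ethylene-induced genes, 1 was measured with a name, the member PDF1.2. Of 4 genes of lipid transfer and lipid recognition measured with a name, 1 was a member, AT2G16005.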

How the data were processed

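Per the labels' protocols, total RNA was copied with an oligo(dT) primer and its biotin-labelled cRNA was hybridised to 18 ATH1 arrays, 1 per sample. The deposited intensities are on a linear scale, 1 value per probe set, with a mean of 100.007 or 100.008 units per array after trimming 2% at each end, so the authors' values were already scaled. The name of the software was not given in the sources used here. Of 22810 probe sets, 64 controls were left out. Values entered as log2(value + 16) with no further scaling. Tests left out the dimmest 30% of probe sets by mean log2 value and kept 15922. Genes were named from the platform annotation and updated to the RefSeq table of TAIR10.1, where 13436 of the 13513 probe sets with 1 gene matched, and 503 with several genes and 8730 unlisted ones stayed unnamed.

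Tests used limma 3.58.1 in R 4.3.3 (lmFit and eBayes with an intensity trend), with Benjamini-Hochberg adjustment over all tested probe sets and a threshold of 0.05. They were also run on simulated data with independent noise on each array. Those data lack the likeness of same-numbered arrays given below, so they do not show how the tests behave under it. Comparisons at 1 h used 1 term per group over 12 arrays, and steps between times used the condition, genotype and title prefix over 18 arrays. The genotype comparison of list genes used the condition as a term. The labels' replicate numbers pair the arrays: over 18 same-numbered pairs of 1 h arrays, deviations from group means correlated at 0.13 to 0.70, and 12 of 12 arrays matched best with their own number. The main fits held no term for the replicate number, so their SEs, intervals and p-values leave this pairing out. It entered only as the replicate block among the alternatives. Nothing in the labels ties replicates to separate plants or cultures, so the p-values cover only the spread between these samples, possibly technical. No 2 arrays held identical values.

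The members and the gene lists were chosen with earlier results of these data known. Named members are the 15 with the lowest mean difference, list members, up to 8 called in a direction per test (or the smallest unadjusted p), extremes of spread and threshold, and families. Other members were named after their values had been seen. Alternatives were offsets of 1 and 64, quantile normalization, no filter, no trend, prefix or replicate blocks, each prefix alone, leaving out arrays, and the 6 pairs alike in the title word repeat, which was chosen after seeing the data. Promoter and protein sequences were not used here.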

Additional observations from a re-analysis of the deposited data

Results flagged for a closer look

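For 2 unlisted member probe sets, GA4 minus water at 1 h ran opposite ways in the genotypes in all 3 replicate numbers. For 247573_at the log2 differences were 0.07, 0.05 and 0.03 in etr1-1 and -0.12, -0.81 and -0.48 in Col-0, a mean difference of 0.52, and as the probe set lies under the filter this difference was not tested. For 264100_at they were -0.03, -0.26 and -0.97 in etr1-1 and 0.36, 0.01 and 0.19 in Col-0, a mean difference of -0.61, which limma did not call (unadjusted p = 0.0907, SE 0.33). Signs opposite in this way occurred in 537 of 22746 non-control probe sets (2.36%), against 2 of the 164 members. The rule kept the pair differences behind these signs below 0 in the members, so the shares are not comparable.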

How the results depend on the processing

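The number of members was 65 with an offset of 64, all among the 164, and 239 with an offset of 1, with all 164 among them. The median member difference was -0.46 and -0.80 with these offsets, which compress dim values more or less. Over the pairs left out in turn the number ran from 160 to 177 and the median from -0.69 to -0.65. With quantile normalization 157 of the 164 stayed among 166. The DV001 pairs alone gave 234, with 144 shared, and the DV002 pairs alone gave 236, with 128 shared. The 6 pairs alike in the title word repeat gave 187, with 150 shared. The GA4 comparisons at 1 h gave 0 under every alternative run.

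The steps between times depended on the fit. Members called at 30 min against 0 h numbered 9 (2.88% of all tested probe sets were called), and 21 within DV001 (3.93%), 1 without the prefix term (1.36%) and 14 with the replicate block (3.88%). Leaving out arrays gave 2 to 12 (1.46% to 3.14%). For water at 1 h against 0 h they numbered 6 (1.39%), and 14 without the prefix term (4.26%) and 11 with the replicate block (2.63%), and leaving out arrays gave 0 to 8 (0.258% to 1.60%). For 3 h against 1 h they numbered 17 (2.66%), and 8 with no filter (1.29%), 31 within DV001 (3.83%), 26 without the prefix term (6.56%) and 27 with the replicate block (4.73%), and leaving out arrays gave 1 to 20 (0.471% to 3.61%). The cause was not tested. Of the tested list genes 1 was called (6.61% of all tested), and 5 with the replicate block of pairs (14.4%), 2 with the prefix block (11.5%) and 6 within DV001 (8.22%). That count was 2 without each of 6 arrays in turn, which were the 3 h array of either genotype, etr1-1 replicate 3 after water, etr1-1 replicate 1 after GA4 and Col-0 replicate 2 after water or GA4 at 1 h. RTE1 passed without either array at 3 h (-0.30, adjusted p = 0.043 and 0.0428 in limma). EIN3 turned to 0.00851 with quantile normalization. When arrays were left out EIN3 ran from -0.0676 to 0.0322 and ACO3 from -0.149 to 0.000772. Of 595 gene values under alternatives, 505 kept direction and side, 77 lost the call, 2 gained it and 11 turned. The array number limits precision, with 1 array per genotype outside 1 h.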
